A study of Mus musculus with 13 samples.

Results

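Angiopoietin and VEGF receptor genes and endothelial surface genes were followed in fibroblasts on their way to pluripotency. The 10 genes, Tek, Tie1, Kdr, Flt1, Flt4, Eng, Esam, Pecam1, Vegfa and Nrp1, are rows of a table of 24495 genes, and 8 of them passed the filter on low counts; Tie1 and Pecam1 did not. They were chosen from a larger set of results on these same libraries: Tek, Esam and Flt1 had been seen in day 5 cells with the empty vector against untreated cells, and Kdr in cells with wild-type Tet2 against the empty vector. In those 2 comparisons the 10 genes are therefore described by levels and fold changes without p-values, and the number past the threshold is given only beside that of all genes. The other comparisons carry a test, but share libraries with them.

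Bulk RNA-seq was made from 13 libraries of mouse embryonic fibroblasts (MEFs) from embryonic day 12.5 (strain background V6.5 129XBI/6), all Tet2-/- and carrying OKSM, the reprogramming factors Pou5f1, Klf4, Sox2 and Myc, under doxycycline control through rtTA, and all kept at 5% oxygen. Day 5 cells had received a pMXs retrovirus with wild-type Tet2 (Tet2-WT, n = 3), with a stalling mutant of Tet2 (Tet2-E, n = 4) or with no insert (pMXs, n = 3). They were then plated on Mito-C-treated feeder MEFs and given doxycycline (2 µg/mL), LIF, the ERK pathway inhibitor PD0325901 (1 µM) and the beta-catenin activator CHIR99021 (3 µM) until day 5. Untreated MEFs of the same Tet2-null line (n = 3) were not reprogrammed. The labels leave unclear whether the untreated cells carry the empty vector, mention neither sorting nor feeder depletion, and never state that replicates are independent cultures. The p-values therefore speak only to library-to-library spread. Total counts were 20261396 to 25720579 with Tet2-WT, 14052646 to 26265382 with Tet2-E, 14310277 to 25326826 with pMXs and 21985590 to 25991708 in untreated cells. Tet2 RNA was 1176 to 1243 CPM (read counts scaled to library size, per 1e6) with Tet2-WT, 581 to 1403 CPM with Tet2-E, 39.1 to 58.8 CPM with pMXs and 37.8 to 48.3 CPM in untreated cells. The lowest Tet2-E value was that of replicate 100.

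Endothelial cells line blood and lymph vessels. VEGF made by surrounding cells binds the receptor kinases Kdr, Flt1 and Flt4 on them, with Nrp1 as a co-receptor, and drives vessel growth. Angiopoietins bind the receptor kinase Tek, whose relative Tie1 has no established ligand of its own and modulates Tek, and this pair steadies vessels once formed. Several of these genes are also expressed outside vessels: fibroblasts make Vegfa and Nrp1, and Kdr marks early mesoderm.

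Tet2 oxidises 5-methylcytosine, which in mammals lies mostly in CG dinucleotides, so the CG content just upstream of the start site is shown for the 4 genes on which the results turn. The sequences are from RefSeq, build GRCm38.p6, and cover the 250 bases before the annotated start on the gene's own strand, 5′ to 3′, with each CG in capitals (CG reads the same on both strands). They are Tek at chr4:94739039-94739288 (plus strand), Kdr at chr5:75978456-75978705 (minus strand), Eng at chr2:32646345-32646594 (plus strand) and Nrp1 at chr8:128358823-128359072 (plus strand).
Tek: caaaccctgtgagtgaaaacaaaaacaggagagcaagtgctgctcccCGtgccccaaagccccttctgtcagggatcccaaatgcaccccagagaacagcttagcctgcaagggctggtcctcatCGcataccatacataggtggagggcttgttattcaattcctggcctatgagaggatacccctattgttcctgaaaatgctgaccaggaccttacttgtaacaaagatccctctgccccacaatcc
Kdr: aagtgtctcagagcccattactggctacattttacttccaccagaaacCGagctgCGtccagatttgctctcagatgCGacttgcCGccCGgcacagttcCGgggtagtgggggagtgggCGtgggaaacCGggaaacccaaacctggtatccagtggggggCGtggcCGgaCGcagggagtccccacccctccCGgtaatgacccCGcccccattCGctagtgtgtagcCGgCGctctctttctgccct
Eng: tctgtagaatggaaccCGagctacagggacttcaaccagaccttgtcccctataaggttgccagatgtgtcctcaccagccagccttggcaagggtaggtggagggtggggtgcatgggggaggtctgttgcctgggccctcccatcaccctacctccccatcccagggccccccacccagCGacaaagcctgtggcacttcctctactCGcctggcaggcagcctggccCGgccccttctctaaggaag
Nrp1: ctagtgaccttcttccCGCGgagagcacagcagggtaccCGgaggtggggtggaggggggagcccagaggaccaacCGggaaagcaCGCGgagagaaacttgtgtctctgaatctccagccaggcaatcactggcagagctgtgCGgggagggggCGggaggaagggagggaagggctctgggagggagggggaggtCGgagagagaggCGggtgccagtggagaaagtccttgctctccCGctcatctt
The Tek window holds 2 CG, and 81.2% of 32851 RefSeq promoter windows of this length hold at least as many; the median of all windows is 6. Eng holds 4 CG (62.2% hold at least as many), Nrp1 11 (35.6%) and Kdr 16 (25.4%). Among the other genes that matched the RefSeq table, 8 of 10 in all, Tie1 holds 6 CG, Flt4 16 and Flt1 23, and Vegfa, with 2 annotated starts, 11 and 7. The windows describe sequence only; no methylation was measured in these libraries.

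Tek, the angiopoietin receptor, had high RNA levels in every day 5 library and low levels in every untreated one. It stood at 82.0, 72.3 and 81.5 CPM with Tet2-WT (replicates 1, 2 and 250), at 78.8, 82.1, 79.7 and 75.3 CPM with Tet2-E (replicates 1, 2, 100 and 250), at 79.6, 67.0 and 75.1 CPM with pMXs (replicates 2, 100 and 250) and at 2.83, 3.48 and 3.70 CPM in untreated cells (replicates 1, 2 and 100). The 10 day 5 libraries thus lie close together whatever the vector, and none comes near an untreated one. The pMXs level was 22.2-fold the untreated level (log2 fold change 4.47 ± 0.11, SE), as described from a contrast in view when Tek was chosen. Because these are bulk libraries, a difference in the number of cells that express a gene and one in RNA per cell cannot be told apart. Feeder MEFs, present at day 5 alone, are part of that mixture, and their share was not tested.

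Between the vectors, no difference in Tek passed the test where one was made. Tet2-E stood 0.10 ± 0.08 above pMXs on the log2 scale (edgeR quasi-likelihood adjusted p = 0.753), with an interval of 2 SE on each side from -0.062 to 0.26. Tet2-WT and Tet2-E differed by -0.01 ± 0.08 (adjusted p = 0.99 by the same test, interval -0.16 to 0.15). Tet2-WT against pMXs gave 0.09 ± 0.08, with overlapping libraries.

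Tie1, the partner of Tek, was at the edge of detection. It had 0 to 3 counts in 12 of 13 libraries, where 3 counts correspond to 0.11 to 0.208 CPM, and 14 counts (0.682 CPM) in untreated replicate 100. That library was also the highest untreated one for some vessel genes, and the lowest for Flt4, Esam and Eng. Pecam1, an adhesion molecule of endothelial and blood cells, was at 0.925 CPM there, against 0.167 and 0.302 CPM in untreated replicates 1 and 2. Cdh5, the endothelial cadherin, was at 1.95 CPM in replicate 100, against 0.167 and 0.554 CPM in replicates 1 and 2, and Emcn at 0.487 CPM against 0.0833 and 0 CPM. It stood apart in the fibroblast gene Lum too, at 211 CPM against 68.2 and 69.0 CPM in replicates 1 and 2. Pecam1 at day 5 did not exceed 0.224 CPM in any Tet2-WT, 0.138 CPM in any Tet2-E and 0.153 CPM in any pMXs library. These day 5 values rest on 0 to 6 counts a library. Untreated replicate 1 and pMXs replicate 100 had 4 counts each, so no separation of day 5 from untreated libraries is read from Pecam1. Without untreated replicate 100, the log2 difference of pMXs against untreated was 4.55 for Tek, 1.38 for Kdr, -2.47 for Esam and -2.49 for Nrp1, in the same directions as with it.

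**Figure D1:**
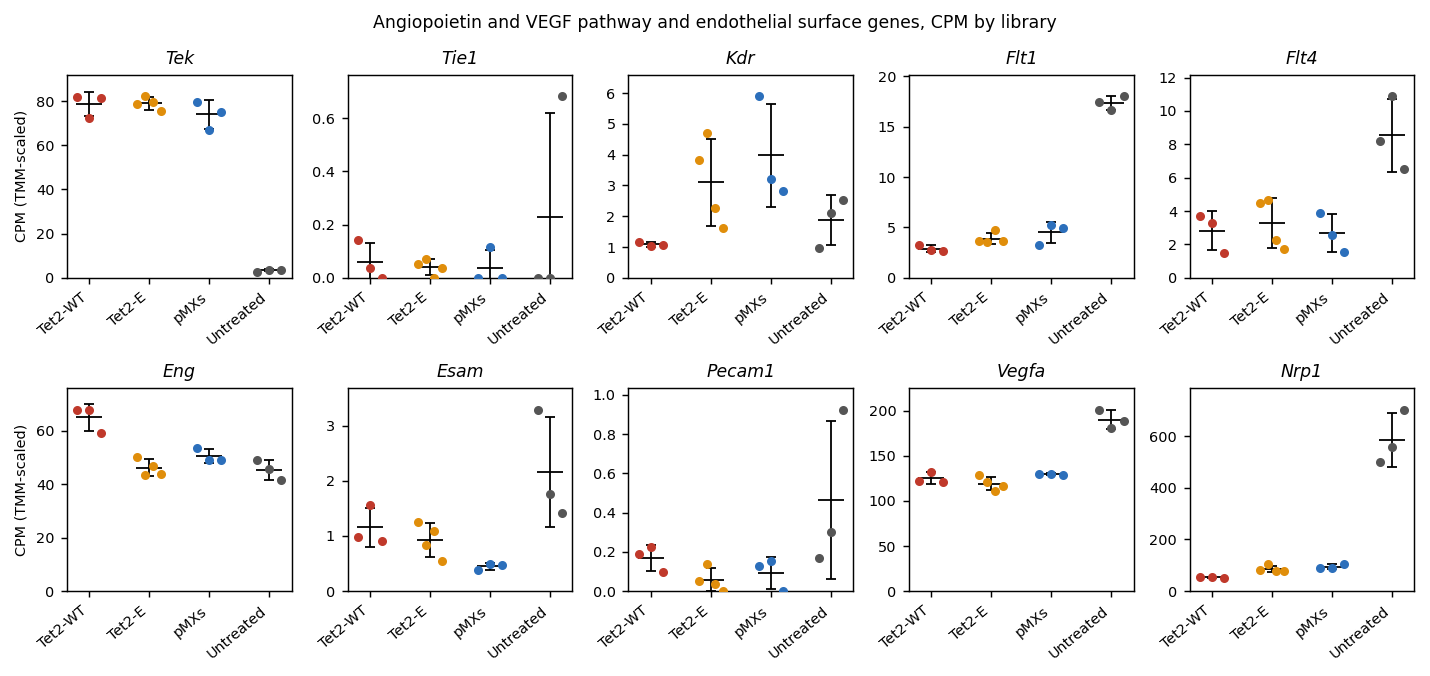
RNA level of the 10 genes in CPM (counts scaled by library size with TMM factors), 1 point per library, with the group mean and SD as bars (drawn down to 0 at most); groups from left are Tet2-WT, Tet2-E, pMXs and Untreated, and each panel has its own axis from 0. Tek lies between 67.0 and 82.1 CPM at day 5 and at or below 3.70 CPM in untreated cells, whereas Nrp1, Flt1, Flt4 and Vegfa are highest in untreated cells and Eng is highest with Tet2-WT.

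Kdr, the main signalling receptor for VEGF, had its lowest mean and its smallest spread with Tet2-WT. Its level was 1.17, 1.04 and 1.05 CPM with Tet2-WT, 3.83, 4.71, 2.28 and 1.62 CPM with Tet2-E, 5.90, 3.22 and 2.81 CPM with pMXs and 0.957, 2.12 and 2.53 CPM in untreated cells, in the replicate order given for Tek. Every Tet2-WT library lay below every Tet2-E and every pMXs library, while the untreated libraries overlap those of Tet2-WT and Tet2-E and lie below those of pMXs. The values rest on 22 to 93 counts a library. Tet2-WT against pMXs gave a log2 difference of -1.85 ± 0.43, or 3.61-fold lower, a contrast in view when Kdr was chosen.

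The direct comparison of Kdr between the 2 forms of Tet2 depended on how the libraries were modelled. Tet2-WT averaged 1.09 ± 0.0723 CPM (SD, n = 3) and Tet2-E 3.11 ± 1.41 CPM (SD, n = 4), a log2 difference of -1.46 ± 0.41 (edgeR quasi-likelihood adjusted p = 0.0631; interval -2.28 to -0.63), which did not pass. With the replicate number as a block (an alternative, since pairing by number is not shown), the difference was -1.47 with an edgeR adjusted p of 0.0237. Over the alternatives edgeR and DESeq2 adjusted p ran from 0.000622 to 0.356. Within replicate numbers 1 and 2, Tet2-WT against Tet2-E was -1.94 on the log2 scale (edgeR adjusted p = 0.000622). Within 100 and 250 it was -0.89, with replicate 250 as the only Tet2-WT library, so that value has no Tet2-WT replication behind it. Tet2-E against pMXs gave -0.40 ± 0.36 (edgeR adjusted p = 0.783; interval -1.12 to 0.33). Against untreated cells, pMXs stood 1.09 ± 0.41 higher, but by 1.97 within numbers 1 and 2 and by 0.27 within 100 and 250. The first of these values rests on pMXs replicate 2 alone and the second on untreated replicate 100 alone. No dependence on the set is therefore read from them.

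Flt1, which binds VEGF tightly and signals weakly, had its highest levels in untreated cells. The levels were 3.28, 2.76 and 2.63 CPM with Tet2-WT, 3.67, 3.53, 4.74 and 3.64 CPM with Tet2-E, 3.30, 5.29 and 4.93 CPM with pMXs and 17.4, 16.6 and 18.0 CPM in untreated cells. No day 5 library overlaps an untreated one, and the Tet2-WT libraries lie just below all others, by as little as 3.28 against 3.30 CPM. The log2 difference of pMXs against untreated was -1.93 ± 0.16, and that of Tet2-WT against pMXs -0.66 ± 0.18. Tet2-WT against pMXs was -0.14 within numbers 1 and 2 and -0.97 within 100 and 250. The first of these values rests on pMXs replicate 2 alone and the second on Tet2-WT replicate 250 alone. Tet2-WT against Tet2-E gave -0.44 ± 0.17 and did not pass (edgeR adjusted p = 0.179), nor did Tet2-E against pMXs at -0.21 ± 0.16 (edgeR adjusted p = 0.736).

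Flt4, the receptor for Vegfc and Vegfd in lymphatic vessels, was also lower at day 5. It was at 3.71, 3.28 and 1.48 CPM with Tet2-WT, at 4.51, 4.64, 2.24 and 1.73 CPM with Tet2-E, at 3.87, 2.57 and 1.57 CPM with pMXs and at 8.20, 10.9 and 6.52 CPM in untreated cells. The 3 day 5 groups overlap one another and lie below the untreated libraries. The log2 difference of pMXs against untreated was -1.67 ± 0.40. Differences between the vectors were 0.09 ± 0.44 for Tet2-WT against pMXs, 0.23 ± 0.41 for Tet2-E against pMXs (edgeR adjusted p = 0.912) and -0.15 ± 0.40 for Tet2-WT against Tet2-E (edgeR adjusted p = 0.948).

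Flt4 in all 3 day 5 groups, and Kdr with Tet2-E and pMXs but not with Tet2-WT, were higher at replicate numbers 1 and 2 than at 100 and 250. Kdr was 3.83 and 4.71 CPM in Tet2-E replicates 1 and 2 and 2.28 and 1.62 CPM in replicates 100 and 250, and Flt4 was 4.51 and 4.64 CPM against 2.24 and 1.73 CPM in the same libraries. In pMXs, replicate 2 was again the highest of its group for both genes, and for Flt1 the lowest. The labels say that libraries were prepared in 2 sets without saying which library belonged to which, so the numbers cannot be tied to a set from the labels. Tet2-WT holds 2 libraries of numbers 1 and 2 and 1 of 100 and 250, pMXs 1 and 2, and Tet2-E 2 of each.

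**Figure D2:**
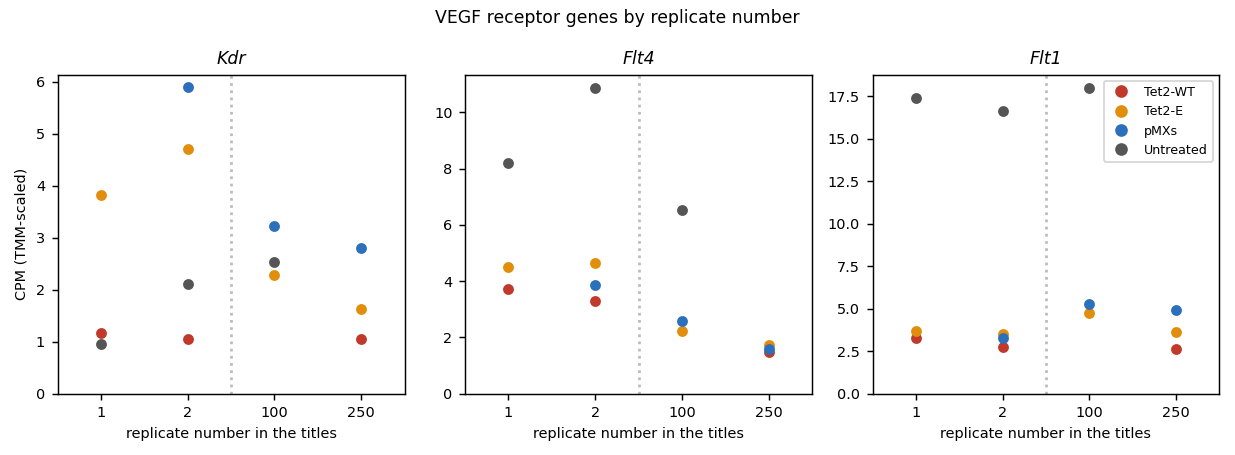
CPM of Kdr, Flt4 and Flt1 by the replicate number in the titles, 1 point per library and coloured by group; the dotted line parts numbers 1 and 2 from 100 and 250. Kdr in Tet2-WT stays between 1.04 and 1.17 CPM at every number, while Tet2-E spans 1.62 to 4.71 CPM and pMXs 2.81 to 5.90 CPM, each highest at number 2.

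Summed per kilobase of exon, the 5 receptor kinases differed in make-up between day 5 and untreated cells. Lengths were the union of exons in the GENCODE annotation of GRCm38, not the build the authors counted on. The sum was 17.4 ± 1.15 CPM per kb with Tet2-WT, 17.8 ± 0.884 with Tet2-E, 16.8 ± 1.49 with pMXs and 3.28 ± 0.27 in untreated cells (SD). Tek made up 96.0% ± 1.06 of it with Tet2-WT, 94.2% ± 1.57 with Tet2-E, 93.4% ± 1.24 with pMXs and 21.5% ± 1.82 in untreated cells. Flt1 held 2.02% with pMXs and 39.4% ± 4.12 in untreated cells, and Flt4 1.92% with pMXs and 31.5% ± 7.02 in untreated cells. Kdr held 0.695% with Tet2-WT, 1.91% with Tet2-E, 2.58% with pMXs and 6.20% in untreated cells. These shares restate the levels that chose the genes and are given without a test.

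**Figure D3:**
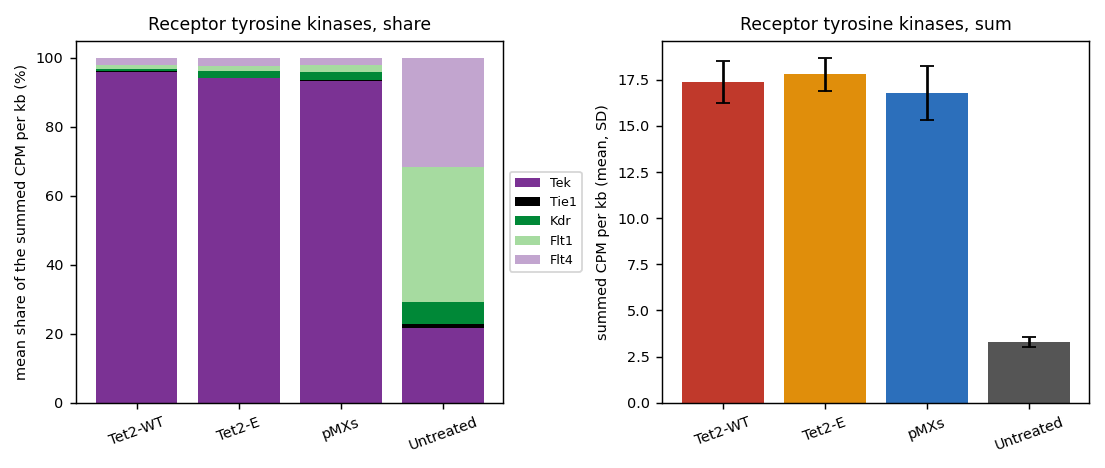
Left, mean share (percent) of Tek, Tie1, Kdr, Flt1 and Flt4 in their summed CPM per kb of exon, by group; right, that sum as the mean with SD bars (n = 3, 4, 3 and 3 from left). Tek fills 93.4% to 96.0% of the sum in the day 5 groups and 21.5% in untreated cells, where Flt1 and Flt4 fill most of it.

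Nrp1, the co-receptor for VEGF and class III semaphorins, had the lowest level with Tet2-WT and by far the highest in untreated cells. It was at 53.8, 55.2 and 51.2 CPM with Tet2-WT, at 82.3, 105, 78.2 and 78.7 CPM with Tet2-E, at 90.2, 87.6 and 104 CPM with pMXs and at 499, 558 and 703 CPM in untreated cells. The Tet2-WT libraries lie below all others, and Tet2-E and pMXs overlap. Nrp1 fell with Tet2-WT relative to Tet2-E by 0.69 ± 0.12 on the log2 scale (edgeR quasi-likelihood adjusted p = 0.00391), lower in 3 of 3 Tet2-WT libraries. Tet2-WT against pMXs was -0.82 ± 0.13. Tet2-E against pMXs was -0.13 ± 0.12 (edgeR adjusted p = 0.79), and pMXs against untreated -2.64 ± 0.13, or 6.24-fold lower. Tet2-E replicate 2 was the highest of its group at 105 CPM; without it Tet2-WT against Tet2-E was -0.58 (edgeR adjusted p = 0.00731).

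Eng, a co-receptor for ligands of the TGF-beta family on endothelium and stroma, had its highest levels with Tet2-WT. It was at 67.8, 67.9 and 59.2 CPM with Tet2-WT, at 50.3, 43.5, 46.7 and 44.0 CPM with Tet2-E, at 53.7, 48.9 and 48.9 CPM with pMXs and at 49.2, 45.5 and 41.5 CPM in untreated cells. The 3 Tet2-WT libraries are the 3 highest of the 13. Eng rose with Tet2-WT relative to Tet2-E by 0.49 ± 0.08 on the log2 scale, or 1.41-fold (edgeR quasi-likelihood adjusted p = 0.00176). Tet2-WT against pMXs was 0.36 ± 0.09, Tet2-E against pMXs was -0.13 ± 0.08 (edgeR adjusted p = 0.661), and pMXs stood 0.15 ± 0.09 above untreated with overlapping libraries.

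The Eng value carries a limit of the annotation. Exons of Eng overlap those of Fpgs, an enzyme of folate metabolism on the opposite strand, and whether counting used strand is not given in the sources used here, so reads of the 2 genes may not be fully told apart. Fpgs averaged 38.4 CPM with Tet2-WT and 34.6 CPM with Tet2-E, a log2 difference of 0.15 ± 0.10 that did not pass (edgeR adjusted p = 0.603). Nrp1 overlaps the microRNA gene Mir1903 on its own strand. Both Eng and Nrp1 passed in Tet2-WT against Tet2-E in all 16 alternatives, Eng with log2 differences of 0.39 to 0.56 and adjusted p of at most 0.0465, Nrp1 with -0.78 to -0.58 and at most 0.0241, by edgeR and DESeq2. Without Tet2-E replicate 100, the library with the least Tet2 RNA of its group, Eng gave 0.50 (edgeR adjusted p = 0.00649) and Nrp1 -0.73 (edgeR adjusted p = 0.00698).

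Esam, an immunoglobulin-type adhesion molecule of endothelial junctions, was low everywhere and lowest with pMXs. It was at 0.985, 1.57 and 0.908 CPM with Tet2-WT, at 1.26, 0.830, 1.08 and 0.552 CPM with Tet2-E, at 0.380, 0.498 and 0.479 CPM with pMXs and at 3.29, 1.76 and 1.41 CPM in untreated cells. All pMXs libraries lie below all others, on 6 to 13 counts each. Tet2-WT stood 1.34 ± 0.43 above pMXs, and pMXs against untreated was -2.23 ± 0.41. Tet2-E against pMXs gave 1.00 ± 0.43, higher in 4 of 4 Tet2-E libraries, with an unadjusted p of 0.0337 that did not pass over all genes (edgeR adjusted p = 0.484; interval 0.14 to 1.86). Tet2-WT against Tet2-E was 0.34 ± 0.35 (edgeR adjusted p = 0.773).

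Vegfa, the ligand of Kdr and Flt1, was abundant in all groups and higher in untreated cells. It was at 122, 133 and 121 CPM with Tet2-WT, at 129, 121, 111 and 117 CPM with Tet2-E, at 131, 130 and 128 CPM with pMXs and at 201, 181 and 188 CPM in untreated cells. The day 5 libraries lie together below the untreated ones. On the log2 scale pMXs against untreated was -0.55 ± 0.07. Tet2-WT against pMXs was -0.05 ± 0.07, Tet2-E against pMXs -0.12 ± 0.07 (edgeR adjusted p = 0.601) and Tet2-WT against Tet2-E 0.07 ± 0.07 (edgeR adjusted p = 0.735).

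**Figure D4:**
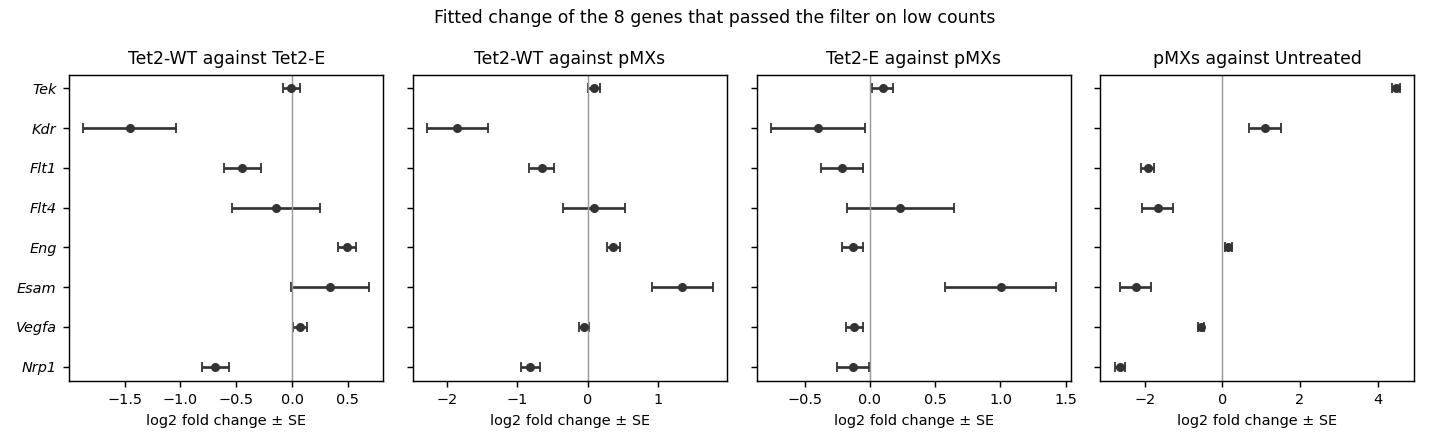
Log2 fold change (point) with 1 SE on each side (bar) of the 8 genes that passed the filter, in 4 comparisons from 1 edgeR fit; each panel has its own axis and the grey line marks 0. Tet2-WT against Tet2-E shows Eng at 0.49 and Nrp1 at -0.69, Kdr lies left of 0 in every panel but pMXs against Untreated, and Tek is at 4.47 in that panel and within 0.10 of 0 in the others.

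Set against all genes, the counts read as follows. In pMXs against untreated, 7 of the 8 genes passed an adjusted p of 0.05, 2 higher and 5 lower, where 70.1% of 14607 genes passed (35.0% higher and 35.0% lower); since the genes were chosen on this contrast, nothing is read from the count. In Tet2-WT against pMXs, 4 passed, 1 higher and 3 lower, where 12.5% of genes passed (6.01% higher and 6.52% lower), and the same limit applies. In Tet2-E against pMXs, 0 of 8 passed with edgeR and 0 with DESeq2, and 1, Esam, had an unadjusted p under 0.05; of all genes 0.0479% passed (0.0205% higher and 0.0274% lower). In Tet2-WT against Tet2-E, 2 of 8 passed, 1 higher and 1 lower, where 4.62% of genes passed (2.43% higher and 2.19% lower). The median log2 fold change of the 8 genes in the last comparison was -0.076, against -0.0051 over all genes.

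Per kilobase of exon, the order of the 10 levels differed between day 5 and untreated cells. With Tet2-WT it ran from Vegfa (29.2 CPM per kb) over Tek (16.7) and Eng (16.1) to Nrp1 (5.46), and then, below 1 CPM per kb, Esam, Flt4, Flt1, Kdr, Pecam1 and Tie1. Tek and Eng overlapped there, as did Esam with Flt4, Flt4 with Flt1 and Pecam1 with Tie1. With Tet2-E the same 4 genes led, at 27.8, 16.8, 11.4 and 8.80 CPM per kb, and Eng overlapped Nrp1. With pMXs they led without overlap at 30.2, 15.7, 12.5 and 9.61 CPM per kb, and Kdr, Flt1 and Flt4 followed together. In untreated cells Nrp1 came first (60.0 CPM per kb), before Vegfa (44.4) and Eng (11.2), and Tek (0.708) overlapped Esam (0.752).

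The soluble ligands that these receptors bind were lower at day 5 than in untreated cells. Of the 7 ligand genes besides Vegfa, 0 rose and 7 fell in pMXs against untreated (median log2 fold change -1.51, against -0.0013 over all genes). Of all genes, 35.0% rose and 35.0% fell in this comparison. Angpt2, an angiopoietin that can block or activate Tek, averaged 2.14 CPM with pMXs and 45.5 CPM in untreated cells (log2 -4.42 ± 0.18, edgeR adjusted p = 2.2e-11). Vegfd, a ligand of Flt4, averaged 33.0 CPM with pMXs and 185 CPM in untreated cells (-2.48 ± 0.15, edgeR adjusted p = 1.3e-09). The summed ligand level was 44.7 to 58.2 CPM with Tet2-WT, 52.4 to 66.5 with Tet2-E, 56.9 to 71.1 with pMXs and 275 to 340 in untreated cells. Angpt1, the activating ligand of Tek, averaged 9.89 CPM with pMXs and 28.1 CPM in untreated cells. Tek was thus high in the libraries in which its ligands Angpt1 and Angpt2 were low.

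Vegfc, the other Flt4 ligand, fell with Tet2-WT in both comparisons by edgeR. It averaged 1.21 CPM with Tet2-WT, 2.26 CPM with Tet2-E and 2.92 CPM with pMXs, with log2 differences of -0.91 ± 0.22 for Tet2-WT against Tet2-E (edgeR adjusted p = 0.0274) and -1.29 ± 0.23 for Tet2-WT against pMXs (edgeR adjusted p = 0.00187). By edgeR the other 6 ligand genes did not pass in either comparison. DESeq2 called 2 ligand genes lower in Tet2-WT against pMXs and 1 in Tet2-WT against Tet2-E. Among all 14607 genes, 6.52% fell in the first comparison and 2.19% in the second by edgeR. DESeq2 called 2100 and 918 of them, in either direction. Nothing is read from the ligand counts.

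Among 10 co-receptors and partners, 1 rose and 8 fell in pMXs against untreated (median log2 fold change -1.72), where 35.0% of all genes rose and 35.0% fell. The semaphorins Sema3a and Sema3f, which bind neuropilins, averaged 18.6 and 13.6 CPM with pMXs and 229 and 125 CPM in untreated cells. Dok2, an adaptor that binds active Tek, averaged 1.84 CPM with pMXs and 0.644 CPM in untreated cells and rose (1.52 ± 0.40, edgeR adjusted p = 0.00326). With Tet2-WT, 0 rose and 5 fell relative to pMXs, and 0 rose and 3 fell relative to Tet2-E by edgeR (6 and 4 fell by DESeq2). Of all genes, 6.52% fell relative to pMXs and 2.19% relative to Tet2-E by edgeR. Acvrl1, a kinase receptor that works with Eng, averaged 2.76 CPM with Tet2-WT, 5.05 CPM with Tet2-E and 7.83 CPM with pMXs, so that it fell where Eng rose (Tet2-WT against Tet2-E -0.86 ± 0.14, edgeR adjusted p = 0.00163). Plxnd1, a semaphorin receptor of endothelium that pairs with neuropilins, averaged 6.44 CPM with Tet2-WT and 9.37 CPM with Tet2-E and fell as well (-0.54 ± 0.10, edgeR adjusted p = 0.00347); it was named after its value was seen.

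The label endothelial was checked against 16 defining markers, and many were under 1 CPM in every group. Under 1 CPM in every library of the group were 9 of 16 with Tet2-WT, 9 with Tet2-E, 10 with pMXs and 7 in untreated cells, among them Cldn5, Vwf, Robo4, Icam2, Aplnr and Nos3 in all groups. In untreated cells Cdh5 and Plvap exceeded 1 CPM in replicate 100 alone (1.95 and 1.51 CPM). The lower count of 7 there thus rests at least partly on that library, and no difference from day 5 is read from it. Emcn was at 0 in every Tet2-E and pMXs library, and Cdh5 did not exceed 0.430 CPM in any Tet2-WT, 0.419 CPM in any Tet2-E and 0.753 CPM in any pMXs library. Between pMXs and untreated cells the markers moved both ways, as counted below. Clec14a averaged 5.27 CPM with pMXs and 36.7 CPM in untreated cells, and Cd93 0.696 CPM with pMXs and 2.37 CPM in untreated cells. Ramp2 averaged 6.17 CPM with pMXs and 2.20 CPM in untreated cells, and Cd34 216.4 CPM with pMXs and 87.85 CPM in untreated cells. The summed level was 230 to 254 CPM with Tet2-WT, 225 to 267 with Tet2-E, 278 to 308 with pMXs and 171 to 195 in untreated cells, and most of it was Cd34 and S1pr1, which other cell types also express. Tek at 67.0 to 82.1 CPM at day 5 therefore stood beside endothelial cadherin under 1 CPM, and the genes are called here by their families rather than as endothelial expression.

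**Figure D5:**
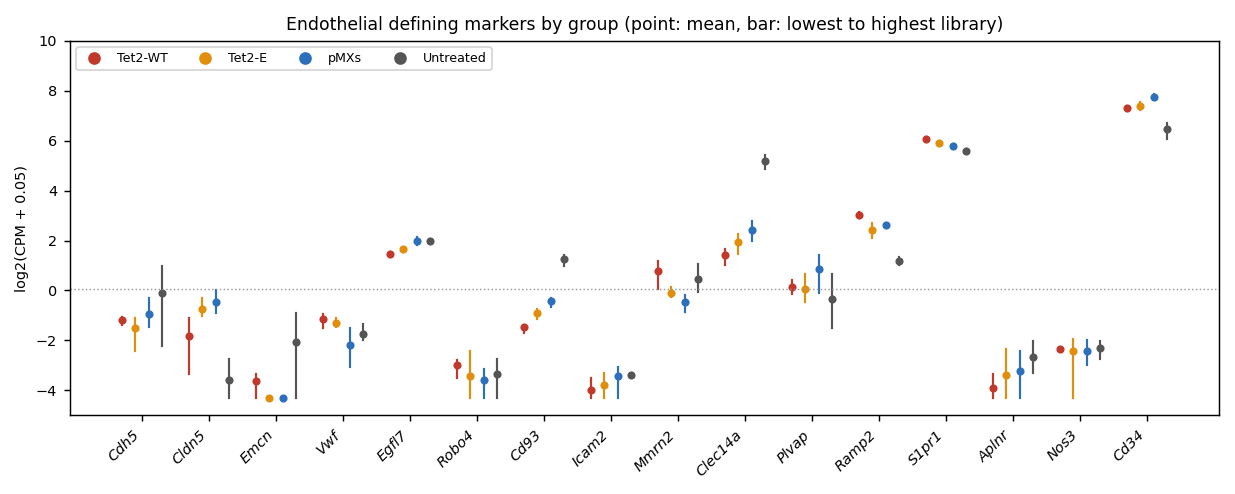
Level of 16 endothelial defining markers as log2(CPM + 0.05), with the group mean as a point and the lowest to highest library as a bar; groups from left at each gene are Tet2-WT, Tet2-E, pMXs and Untreated, and the dotted line marks 1 CPM. Cdh5 stays under 1 CPM in all day 5 libraries and Emcn is at 0 in every Tet2-E and pMXs library, while Cd34 and S1pr1 stand highest.

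In pMXs against untreated 35.0% of all genes rose and 35.0% fell. The shares were 6.01% and 6.52% in Tet2-WT against pMXs, and 2.43% and 2.19% in Tet2-WT against Tet2-E. Beside these shares, the endothelial markers that could be tested were split in direction. Of 10 tested, 5 rose and 3 fell in pMXs against untreated (median log2 fold change 0.095), on a contrast whose endothelial genes had been seen before: Ramp2 (log2 1.48 ± 0.17) and Cd34 (1.30 ± 0.13) rose, and Clec14a (-2.81 ± 0.21) and Cd93 (-1.79 ± 0.24) fell, by edgeR. In Tet2-WT against pMXs, 2 rose (Mmrn2 and S1pr1) and 4 fell by edgeR, among them Clec14a and Egfl7, while DESeq2 called 2 higher and 2 lower. In Tet2-WT against Tet2-E, 1 rose, Ramp2 (8.16 CPM with Tet2-WT and 5.32 CPM with Tet2-E), and 0 fell by edgeR or DESeq2 (1 with an unadjusted p under 0.05). Of 10 transcription factors of endothelium and blood, 5 were tested; in pMXs against untreated Hhex rose (2.67 ± 0.30) and 3 fell, among them Fli1 (-2.44 ± 0.33) and Erg (-1.73 ± 0.31). In Tet2-WT against pMXs, Gata2 rose (0.77 ± 0.23) and Erg fell (-1.59 ± 0.39), and 0 of 5 passed in Tet2-WT against Tet2-E by edgeR or DESeq2 (2 had an unadjusted p under 0.05). Etv2, the factor that starts the endothelial programme, was at 0 in every untreated library and under 1 CPM in every other, and Sox17 was at 0 in every day 5 library.

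Hypoxia-responsive genes were mostly higher at day 5. Vegfa, which belongs to this class but not to the list counted here, was lower (log2 -0.55 ± 0.07 in pMXs against untreated). Of 13, 8 rose and 3 fell in pMXs against untreated (median log2 fold change 0.76), with Egln3, an oxygen-sensing hydroxylase, at 197 CPM with pMXs and 35.4 CPM in untreated cells, and the glucose transporter gene Slc2a1 at 397 CPM with pMXs and 139 CPM in untreated cells. Adm and Ndrg1 fell (-2.30 ± 0.14 and -1.55 ± 0.11), in a comparison where 35.0% of all genes rose and 35.0% fell. With Tet2-WT, 2 rose and 0 fell relative to pMXs and likewise relative to Tet2-E: Egln3, at 386 CPM with Tet2-WT, 212 CPM with Tet2-E and 197 CPM with pMXs, and Epas1, a hypoxia factor first found in endothelium, at 147 CPM with Tet2-WT, 109 CPM with Tet2-E and 106 CPM with pMXs. Among all genes, 6.01% rose and 6.52% fell in Tet2-WT against pMXs, and 2.43% rose and 2.19% fell in Tet2-WT against Tet2-E. Vegfa did not pass between Tet2-WT and Tet2-E.

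Markers of other cell types moved between the same groups. Of all genes, 35.0% rose and 35.0% fell in pMXs against untreated, and 2.43% and 2.19% in Tet2-WT against Tet2-E. Fibroblast markers summed to 9890 to 11750 CPM with Tet2-WT, 13460 to 14830 with Tet2-E, 15910 to 17960 with pMXs and 38360 to 40870 in untreated cells; all 10 fell in pMXs against untreated (median log2 fold change -2.29), and in Tet2-WT against Tet2-E 0 rose and 4 fell (median -0.55), among them Postn and Col3a1. Mural markers, those of the cells that wrap vessels, summed to 835 to 907 CPM with Tet2-WT, 1004 to 1039 with Tet2-E, 1008 to 1106 with pMXs and 3799 to 4698 in untreated cells. Of these 9 genes 8 fell in pMXs against untreated (median -2.27), and 1, Pdgfrb, fell in Tet2-WT against Tet2-E. Acta2 alone averaged 469 CPM with Tet2-WT, 568 with Tet2-E, 522 with pMXs and 3065 in untreated cells. Abcc9 and Kcnj8 were under 1 CPM in every day 5 library. The gap of the mural sum between day 5 and untreated cells thus largely follows Acta2. Among the day 5 groups the sum does not follow it, since mean Acta2 was higher with Tet2-E than with pMXs. The mural sum is not read as a number of mural cells. In the fibroblast and mural sums Tet2-WT was lowest and untreated highest, as in the means of Nrp1, Acvrl1, Plxnd1 and Vegfc. A link between them was not tested.

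Blood cell and pluripotency markers differed too, beside the same shares of all genes (35.0% higher and 35.0% lower in pMXs against untreated, 2.43% and 2.19% in Tet2-WT against Tet2-E). Blood cell markers summed to 214 to 311 CPM with Tet2-WT, 95.1 to 129 with Tet2-E, 82.5 to 96.4 with pMXs and 8.96 to 11.1 in untreated cells, and of 6 tested 3 rose and 3 fell in pMXs against untreated, while 4 rose and 0 fell in Tet2-WT against Tet2-E by edgeR (median log2 fold change 1.27; 3 rose by DESeq2, and 0 fell by DESeq2 or at an unadjusted p under 0.05), among them Itgam and Laptm5. Laptm5 alone was 251 CPM with Tet2-WT and 96.1 CPM with Tet2-E, while the defining leukocyte genes Ptprc and Cd53 were under 1 CPM in every library of both groups, and Adgre1 and Pf4 at 0 in every Tet2-WT library. Pluripotency markers summed to 506 to 607 CPM with Tet2-WT, 398 to 544 with Tet2-E, 460 to 503 with pMXs and 4.04 to 8.45 in untreated cells, and all 9 tested rose in pMXs against untreated. Most of each day 5 sum was Pou5f1 and Sox2, which the doxycycline-driven OKSM factors include. They averaged 262.4 and 262.5 CPM with Tet2-WT, 224.4 and 233.1 CPM with Tet2-E, and 211.3 and 228.1 CPM with pMXs. The sum therefore largely follows these factors, whose introduced and native copies were not told apart. In Tet2-WT against Tet2-E, Lin28a, at 1.87 CPM with Tet2-WT and 4.16 CPM with Tet2-E, was the 1 of 9 that fell by edgeR, and 0 rose; DESeq2 called 2 lower and 0 higher. In Tet2-E against pMXs, 0 of the 79 tested genes of the 9 lists passed with edgeR, 17 had an unadjusted p under 0.05, and DESeq2 called 4. Of all 14607 genes, 7 passed with edgeR (0.0479%), 1363 had an unadjusted p under 0.05, and DESeq2 called 141. The 0 of 79 is therefore not particular to the lists. The part of cell make-up in the levels of Nrp1, Eng, Kdr and Tek was not tested.

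The genes most like Tek and Kdr across the 13 libraries were found by Pearson's r of log2 CPM over 12437 genes. The nearest to Tek were Cxadr, Slco5a1, Abcb1b, Hmgxb4 and Cstf2 (r of 0.997 to 0.998), but 1634 genes had an r over 0.95, since the points fall into day 5 and untreated libraries; over the 10 day 5 libraries alone the r of these 5 was 0.154 to 0.737. The nearest to Kdr were Pds5b (0.892), Scn3b (0.847), Lrrc7 (0.841), Dapk1 (0.841) and Arhgap42 (0.836), with 0.808 to 0.971 over the day 5 libraries. Scn3b, a sodium channel subunit, averaged 10.2 CPM with Tet2-WT, 18.2 CPM with Tet2-E, 18.7 CPM with pMXs and 16.4 CPM in untreated cells. These values describe the libraries, which differ in depth, group and replicate number, and carry no test.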

How the data were processed

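RNA-seq counts of 13 libraries were used. The deposited values are raw read counts per gene, made by the authors with STAR 2.6.1a on mm9 and featureCounts 1.6.2, per the submitters' processing notes. Those notes list DESeq2 1.26.0, R 3.6.2, bedtools 2.27.1 and SAMtools 1.7 as well; strandedness of counting is not given in the sources used here. The comparisons come from edgeR 4.0.16 in R 4.3.3. After filterByExpr (total minimum 15, count minimum 10), 14607 of 24495 genes were fitted together, with TMM factors, group means and the robust quasi-likelihood test. P-values were adjusted by Benjamini-Hochberg across every gene fitted, and 0.05 was the threshold for rose, fell or passed. The SE is the absolute log2 fold change over the square root of F. CPM are TMM-scaled counts. The biological coefficient of variation was 0.102, and differences between replicates exceeded counting error (chi-square per degree of freedom 7.38 to 49), while the genes with few counts (Tie1, Pecam1, Esam, Kdr, Flt4 and Flt1) are also limited by depth. A floor of 3 counts covers counting error only.

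The 10 genes and the 9 gene lists were chosen with earlier results of these data known. From each list, up to 2 genes that rose and 2 that fell most, with at least 1 CPM in a group, are named, and for Tek and Kdr the 5 genes with the highest r; the symbols Figf and Emr1 matched no row and their newer names Vegfd and Adgre1 did. The fit was tested on simulated data. As alternatives, DESeq2 1.42.0, RLE scaling, an unfiltered table, a minimum of 1 CPM in 3 libraries, the replicate block, a set term, fits within sets or of 2 groups, and the omission of each library were run.

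The groups share replicate numbers, and pairing was checked by correlating each library's deviations from its group mean. Day 5 libraries that share a number had r of 0.104 to 0.291 (8 pairs), those of another number of the same set 0.072 to 0.314, and those of opposite sets (1 and 2 against 100 and 250) -0.363 to -0.0407. Libraries that share a number were thus no more alike than others of their set, and pairing by number is not shown. The sets were themselves chosen because these deviations group that way, so their r is no independent check. The replicate block is given only as an alternative. With untreated libraries the same number gave -0.0493 to 0.131 and was not taken to pair them.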

Additional observations from a re-analysis of the deposited data

Results flagged for a closer look

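Among the 4 Tet2-E libraries, the 1 group large enough for Dixon's test of a sample far from the others, 2 genes stood out. Nrp1 was 105.3 CPM in replicate 2, well above the other Tet2-E libraries, and Flt1 was 4.741 CPM in replicate 100, likewise above the others. By chance this test singles out about 5% of groups.

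The response to Tet2-WT and to Tet2-E differed, by the direct test between them, for Eng, with a log2 difference of 0.4948 for Tet2-WT against Tet2-E, and for Nrp1, with -0.6865.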

How the results depend on the processing

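Of the 8 genes tested, the counts called, which for the 2 comparisons in view at the choice are descriptions only, kept within 1.5 times their value in 3 comparisons: 6 to 8 in pMXs against untreated, 0 in Tet2-E against pMXs and 2 to 3 in Tet2-WT against Tet2-E. The exception was Tet2-WT against pMXs, with 4 called. The count was also lower within replicate numbers 1 and 2, where pMXs has replicate 2 alone. Leaving out 1 library gave 2 to 4, with 2 without pMXs replicate 100, pMXs replicate 250 or Tet2-WT replicate 2. No direction that passed reversed.

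With the replicate block, 3 were called in Tet2-WT against Tet2-E (Kdr, Eng and Nrp1), 8 in pMXs against untreated, 4 in Tet2-WT against pMXs and 0 in Tet2-E against pMXs; it changed no call of Eng or Nrp1 between Tet2-WT and Tet2-E. Kdr in Tet2-WT against Tet2-E also passed by DESeq2 (adjusted p = 0.00582), with a term for the set (edgeR adjusted p = 0.0159) and without Tet2-E replicate 250 (edgeR adjusted p = 0.0259); the cause was not tested. Over all genes DESeq2 called 10102 in pMXs against untreated, 2100 in Tet2-WT against pMXs, 141 in Tet2-E against pMXs and 918 in Tet2-WT against Tet2-E, where edgeR called 10234, 1830, 7 and 675. In pMXs against untreated, Kdr moved between 0.27 and 1.97 and Esam between -2.74 and -1.51 over the alternatives. These ends came from the fits within sets, where pMXs or untreated cells lacked replication.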
